A study of Saccharomyces cerevisiae with 2 samples.

Results

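The set described here is the nuclear tRNAs of Saccharomyces cerevisiae whose genes have no intron and whose anticodon begins with G, at position 34 of the tRNA. The members were taken from the tRNA class of the deposited tables by name: every nuclear row with a G as the first letter of the bracketed anticodon, without tF(GAA), tS(GCU) and tY(GUA), whose genes carry introns, and with the glycine tRNA genes SUF16, SUF17 and SUF20. This gave 54 genes of 285 tRNA features seen in either library, and of 2635 named features in all. They form 6 of 41 nuclear families, a family being all genes of 1 anticodon: tG(GCC) with 16 genes, tD(GUC) with 16, tN(GUU) with 10, tH(GUG) with 7, tC(GCA) with 4 and tL(GAG) with 1. All 54 genes had sense reads in the control library and 47 had them in the Bud22 library. No rule used the counts.

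A G at position 34 pairs with C and, by wobble, with U, so these tRNAs read the codons that end in C or U. For asparagine, aspartate, histidine and cysteine such a tRNA is the cell's only cytosolic reader of that amino acid. Glycine and leucine have further tRNAs for their other codons. Position 37, next to the anticodon, is modified in many of them, for example to t6A in the asparagine tRNA and to i6A in the cysteine tRNA, and the histidine tRNA receives an additional G at its 5′ end from the enzyme Thg1. All are made by RNA polymerase III and trimmed at both ends before export from the nucleus.

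RNA attached to Bud22, a nucleolar factor of small ribosomal subunit assembly, was recovered by CRAC (crosslinking and cDNA analysis): after UV irradiation an affinity-tagged protein is purified with its crosslinked RNA and that RNA is sequenced. One library came from cells carrying Bud22-HIS-TEV-proteinA and 1 from W303 wildtype cells without a tag, which gives the background of the purification. The labels give both the same treatment: growth in YPD to an OD600 of 1.0, 4 h in SDC-URA with the photoreactive 4-thiouracil, and 30 min of UV at 365 nm. In the control's labels the growth protocol mentions the tagged strain, against the genotype, title and source name, and the grouping here follows the genotype. With 1 library per group there is no replicate error and no p-value, and each comparison is between these 2 libraries.

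Every count below has 2 forms. A read count is the number of sense reads at a gene. An entry count comes from a further column, labelled "number of reads", that no source used here defines. It is taken here as the number of distinct reads behind the read count because its values behave that way, although its label does not say so. Every entry ratio rests on that reading. A read is counted at each gene copy it overlaps, so each family is given by its most counted copy, and the copies of a family are not separate measurements. Summed over the 41 families, these copies held 17493 reads and 325 entries in the Bud22 library and 6103 reads and 1035 entries in the control, which is 53.8 against 5.90 reads per entry. Intervals are exact 95% intervals for counting error only; reads of 1 entry are not independent, so intervals from reads are too narrow. Other families dominate these totals: tI(AAU), an isoleucine tRNA, and tY(GUA), the tyrosine tRNA, together made up 79.2% of tRNA reads with Bud22 and 56.9% of control tRNA reads, and 53.5% and 24.9% of entries. Shares over the total without them are therefore given as well.

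Of the 6 families, tG(GCC) and tN(GUU) held most of the set's counts in the Bud22 library, and the aspartate, cysteine, histidine and leucine families had few or none. The glycine and asparagine families held 927 of the set's 1033 reads with Bud22 and 613 of its 1021 reads in the control. By entries they held 42 of 49 and 109 of 226. This division into 2 and 4 families was made after the values were seen and is a description. The set holds 1033 reads and 1021 reads in libraries of unlike tRNA depth, and its share of all tRNA reads was 5.91% with Bud22 (5.56 to 6.26) against a control share of 16.7% (15.8 to 17.7), so the ratio was 0.353 (0.323 to 0.385). By entries the shares were 15.1% (11.4 to 19.4) and 21.8% (19.4 to 24.5), a ratio of 0.690 (0.496 to 0.944). Without tI(AAU) and tY(GUA) in the total, the ratio was 0.732 (0.670 to 0.798) by reads and 1.12 (0.802 to 1.53) by entries, and over all named features it was 0.623 by reads and 1.36 (0.977 to 1.86) by entries. The set as a whole therefore has no settled direction, while its composition differs between the libraries.

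**Figure D1:**
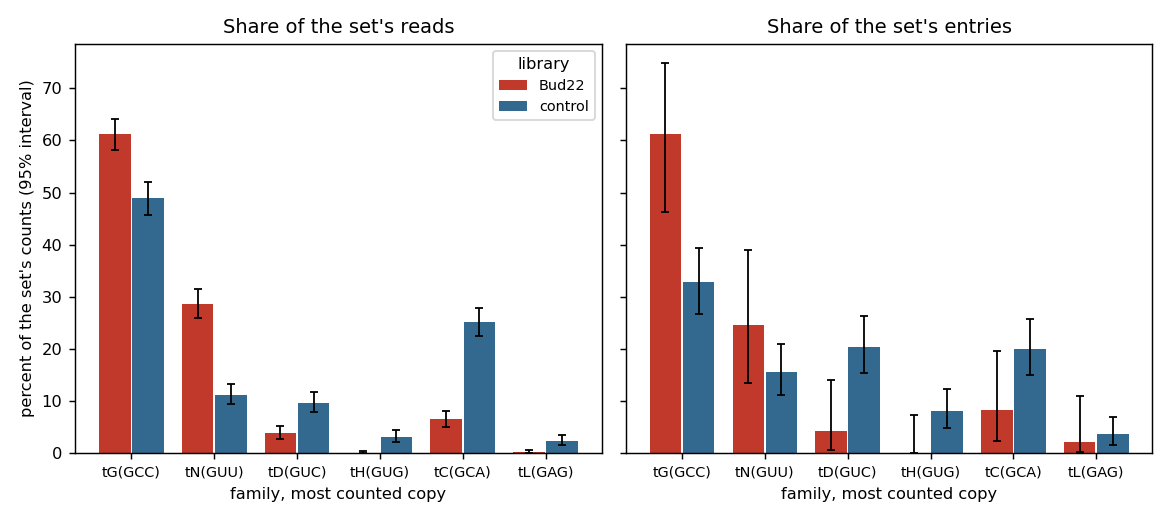
Percent of the set's counts held by each of the 6 families (most counted copy), by reads at left and by distinct entries at right, in the Bud22 library (red) and the control (blue); bars start at 0 and whiskers are exact 95% intervals for counting error. tG(GCC) holds 61.2% of the set with Bud22 in both panels, against 48.9% and 32.7% in the control. The other families except tN(GUU) have smaller shares with Bud22 in both. By entries, among these smaller shares, only the ratio of tD(GUC) has an interval that leaves out 1. The upper limits are 1.12 for tC(GCA), 1.05 for tH(GUG) and 4.30 for tL(GAG).

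The glycine family tG(GCC), which reads GGC and GGU, had 632 Bud22 reads and 499 control reads at its most counted copy, on 30 and 74 entries. It was the most counted family of the set in both libraries by either measure; counts are not divided by length here. Within the set its read share was 61.2% with Bud22 (58.1 to 64.2), against 48.9% in the control (45.8 to 52.0). By entries it held 61.2% (46.2 to 74.8) and 32.7% (26.7 to 39.3), a ratio of 1.87 (1.18 to 2.89). The read ratio against all tRNA was 0.442 (0.392 to 0.498), a lower share, while the entry ratio of 1.29 (0.815 to 2.00) gave no direction. With tI(AAU) and tY(GUA) left out of the total its read ratio was 0.916 (0.813 to 1.03) and its entry ratio 2.09 (1.32 to 3.23).

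The asparagine family tN(GUU), which reads AAC and AAU, had 295 reads against 114 and 12 entries against 35. Its share of the set's reads was 28.6% (25.8 to 31.4) with Bud22, against 11.2% (9.30 to 13.3) for the control, which gives a ratio of 2.56 (2.05 to 3.20). By entries the shares were 24.5% and 15.5%, and the ratio of 1.58 (0.747 to 3.12) was not distinguishable from 1 at that depth. Against all tRNA the ratios were 0.903 (0.725 to 1.13) by reads and 1.09 (0.516 to 2.15) by entries, and both intervals include 1. Without tI(AAU) and tY(GUA) they were 1.87 (1.50 to 2.34) and 1.76 (0.834 to 3.48).

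The aspartate family tD(GUC), which reads GAC and GAU, had 39 reads against 98 and 2 entries against 46. Its share was lower with Bud22 in each of these comparisons. Against all tRNA the ratio was 0.139 (0.0932 to 0.203) by reads and 0.138 (0.0163 to 0.529) by entries, so the measures gave nearly the same value. Within the set it was 0.393 (0.264 to 0.576) and 0.201 (0.0236 to 0.767). Without tI(AAU) and tY(GUA) it was 0.288 (0.193 to 0.421) and 0.224 (0.0263 to 0.855). Over all named features the entry ratio was 0.273 with an interval up to 1.04. The family reached the minimum of 10 entries over both libraries only through the control, so its entry ratios are no support for a direction. In the control its 46 entries were close to the 45 of tC(GCA), on 98 against 256 reads.

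The cysteine family tC(GCA), which reads UGC and UGU, had 66 reads against 256 and 4 entries against 45. In the control it held 25.1% of the set's reads (22.4 to 27.9), and with Bud22 6.39% (4.98 to 8.06), a ratio of 0.255 (0.191 to 0.335). By entries the shares were 19.9% and 8.16%, a ratio of 0.410 (0.107 to 1.12), whose interval includes 1. Against all tRNA the ratio was 0.0899 (0.0676 to 0.118) by reads and, by entries, 0.283 (0.0739 to 0.776). Without tI(AAU) and tY(GUA) in the total it was 0.186 by reads, with an upper limit of 0.245, and the entry ratio was 0.457 (0.119 to 1.25). Over all named features the entry ratio was 0.558 (0.146 to 1.53), so by entries a lower share was shown against the whole tRNA total alone.

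The histidine family tH(GUG), which reads CAC and CAU, was the only one of the 6 without a read in the Bud22 library. The control had 31 reads on 18 entries at its most counted copy. A count of 0 allows a share of tRNA reads of up to 0.0211% with Bud22, against 0.508% (0.345 to 0.720) in the control. The ratio of the shares had an upper limit of 0.0441. This limit holds for reads and not for molecules, since the mean is 53.8 reads per entry there. By entries, 0 of 325 allows up to 1.13%, against 1.74% (1.03 to 2.73) in the control, so these intervals overlap. The entry ratio had an upper limit of 0.724. That limit was 1.17 without tI(AAU) and tY(GUA) in the total and 1.43 over all named features, so by entries a lower share was shown against the whole tRNA total and not against these others.

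The leucine family tL(GAG), a single gene that reads CUC and CUU, had 1 read against 23 and 1 entry against 8. Its ratio against all tRNA was 0.0152 (0.000368 to 0.0934) by reads. By entries it fell short of the minimum of 10 counts over both libraries, and its ratio of 0.398 (0.00897 to 2.97) gave no direction. Both tH(GUG) and tL(GAG) reached that minimum in reads only through the control.

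**Figure D2:**
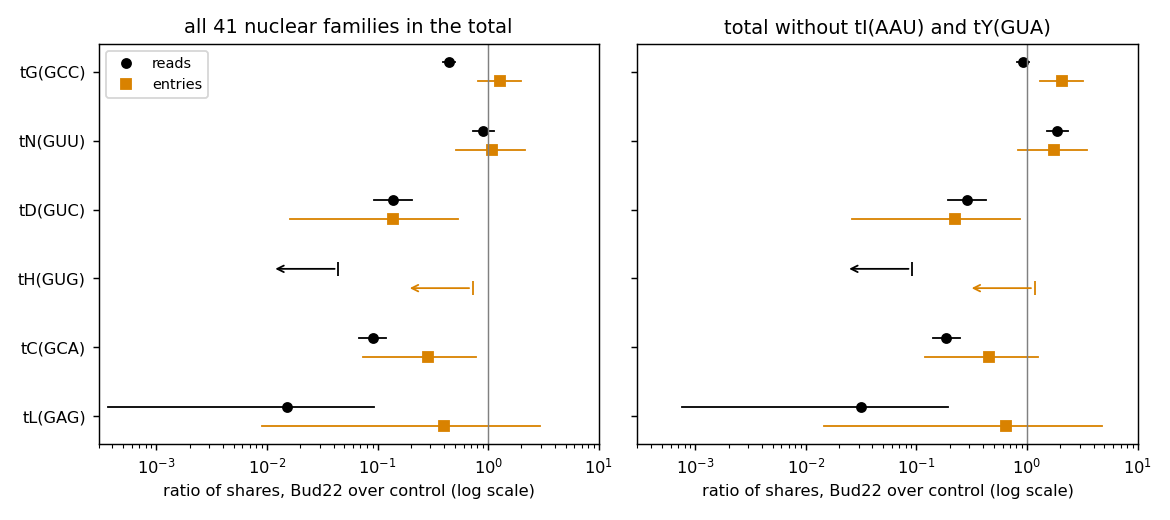
Ratio of each family's share, Bud22 over control, on a log axis, by reads (black circles) and by distinct entries (orange squares), over the total of all 41 nuclear tRNA families at left and over the total without tI(AAU) and tY(GUA) at right. Lines are exact 95% intervals for counting error, and arrows show upper limits for tH(GUG), which had 0 counts with Bud22. tD(GUC) lies below 1 with its whole interval in every series, from 0.138 to 0.288, and tG(GCC) lies below 1 by reads at left, while its entry interval there includes 1.

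For a call, a family needed 10 or more counts in the libraries together, a difference of 2-fold or more in share, and an interval that left out 1. By reads over the tRNA total, 5 of the 6 families were called lower, tN(GUU) was neither, and 0 were called higher. Of the 5, tH(GUG) and tL(GAG) reached the minimum only through the control, with 0 and 1 Bud22 reads. Of all 36 families measured by reads, 66.7% were called lower and 5.56% higher, so a lower call was the common outcome there. By entries 3 of 5 measured families were called lower (tD(GUC), tC(GCA) and tH(GUG)) and 0 higher, against 27.6% and 3.45% of 29 families. Those 3 reached the minimum of 10 entries only through the control, with 2, 4 and 0 entries in the Bud22 library, so that count is no support for a direction. The median log2 ratio of the 6 families was -3.15 by reads beside -1.55 over all measured families, and -1.67 beside -0.73 by entries. With a Bud22 count of 0 set to the floor of 3, and its ratio held at 1 or below, these were -3.16 and -1.55, and -0.91 and -0.55. These medians count each family once, whereas the summed ratio of 0.353 is weighted towards tG(GCC).

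Gene by gene, each over the sense total of all named features, 28 of the 54 genes were called lower by reads, 26 were neither and 0 were called higher. All named features with at least 10 reads numbered 494, and of these 49.4% were called lower and 23.7% higher. The 28 were every gene of the aspartate, histidine, cysteine and leucine families, with ratios from 0 to 0.245. Among them the tH(GUG) genes, the tL(GAG) gene and tD(GUC)N had 0, 1 and 7 Bud22 reads. These reached the minimum of 10 reads only through the control, so their calls are no support for a direction. The 16 tG(GCC) genes had ratios from 0.779 to 0.865 and the 10 tN(GUU) genes from 1.52 to 1.59. By entries the picture turned: 17 of 53 measured genes were called higher, namely all 16 tG(GCC) genes, with ratios from 2.28 to 2.79, and tN(GUU)K, and 0 were called lower. Over all 342 features measured by entries 17.5% were called higher and 12.6% lower. The copies of a family share most of their reads, so these counts are in effect counts of families.

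Between copies, the tG(GCC) genes fell into 2 levels that were alike in both libraries. The gene tG(GCC)D2 had 632 reads with Bud22 against 499, tG(GCC)E had 557 and 436, and SUF16 had 553 and 435. The other 13 copies, SUF17 and SUF20 included, lay between 416 and 443 with Bud22 and between 312 and 318 in the control. These ranges do not overlap with the 3 higher copies in either library, and the 3 stood in the same order in both. By entries the 3 had 30, 27 and 25 with Bud22 and 74, 65 and 64 in the control, and the other 13 had 20 to 24 and 53 to 57. At least 216 reads were thus counted at tG(GCC)D2 and not at the least counted copy with Bud22, and at least 187 in the control. The lowest copy held 65.8% of the reads of the highest with Bud22 and 62.5% in the control. SUF17 had 416 reads against 312 and SUF20 had 422 against 313; these genes take their names from frameshift suppressor mutations in the glycine tRNA.

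The asparagine and aspartate families each had 1 copy that stood apart. The gene tN(GUU)K had 295 Bud22 reads and 114 control reads, and the other 9 copies had 254 each with Bud22 and 101 to 103 in the control. Its surplus over the lowest copy was 41 reads on 3 entries with Bud22 and 13 reads on 6 entries in the control. The gene tD(GUC)N had 7 reads on 1 entry with Bud22, where the other 15 copies had 39 on 2 entries. In the control it had 81 reads on 37 entries, where the other 15 had 98 on 46. It thus held 17.9% of the top copy's reads with Bud22 and 82.7% in the control, and with 2 entries in the family a single entry sets that difference. Its ratio over all named features was 0.0532 (0.0207 to 0.115) by reads, the lowest among the tD(GUC) genes.

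The remaining families were nearly even across their copies. The 4 tC(GCA) genes had 66 reads each with Bud22; in the control 3 had 246 and tC(GCA)B had 256. The 7 tH(GUG) genes had 29 or 31 reads in the control. None of the 54 genes had an antisense read in either library. Sequences of these genes were not used here, so whether the copies that stand apart differ in sequence or in their flanks was not tested.

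**Figure D3:**
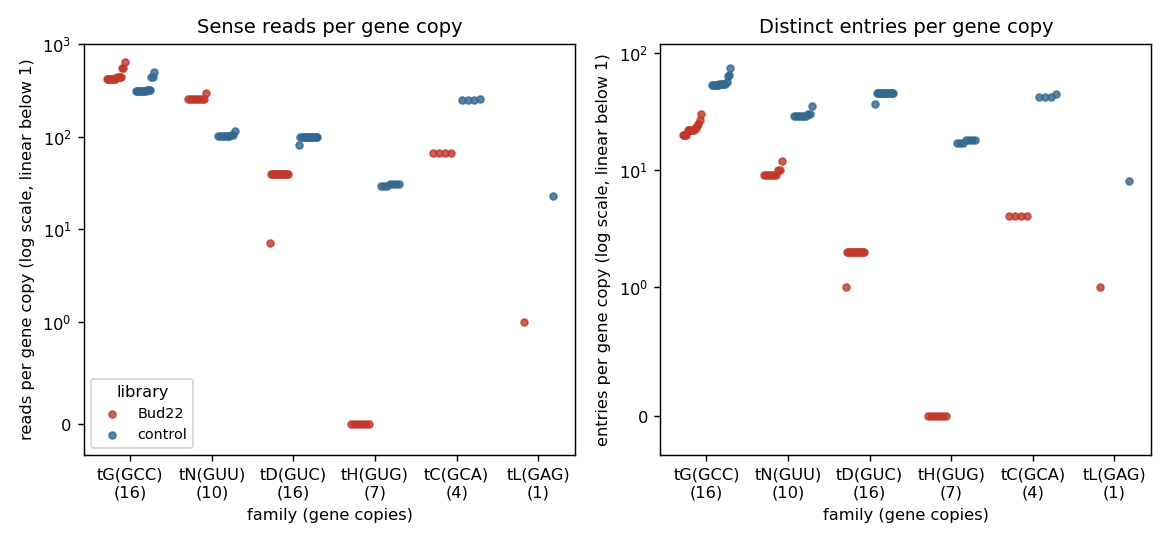
Sense reads (left) and distinct entries (right) at each of the 54 gene copies, grouped by family with the number of copies in brackets, for the Bud22 library (red) and the control (blue); the vertical axis is logarithmic above 1 and linear below. Within a family the copies nearly coincide, except 3 higher tG(GCC) copies, 1 higher tN(GUU) copy and 1 lower tD(GUC) copy, and all 7 tH(GUG) copies are at 0 with Bud22.

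With Bud22 the number of reads behind each entry lay between 16.5 and 24.6 for the 4 larger families of the set. Of these, tD(GUC) and tC(GCA) rest on 2 and 4 entries there, so an even depth cannot be concluded. For the set as a whole the number was 21.1 with Bud22 and 4.52 in the control, against 53.8 and 5.90 for all tRNA families. No interval is set on these values, as the spread of reads between entries was not measured. The mean of 53.8 is set by tI(AAU) and tY(GUA): the 33 other families had 25.6 reads per entry with Bud22. In the control they had 2.92. With Bud22 it was 24.6 for tN(GUU), 21.1 for tG(GCC), 19.5 for tD(GUC) and 16.5 for tC(GCA), and tL(GAG) had 1 read on its 1 entry. In the control it spanned 1.72 for tH(GUG) to 6.74 for tG(GCC), with 2.13 for tD(GUC), 3.26 for tN(GUU) and 5.69 for tC(GCA). The intronless families with A34 had 78.5 reads per entry with Bud22, those with U34 or C34 had 19.2 and those with an intron 42.2. Since these depths differ between sets, read ratios between sets carry this difference and entry ratios are set beside them.

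**Figure D4:**
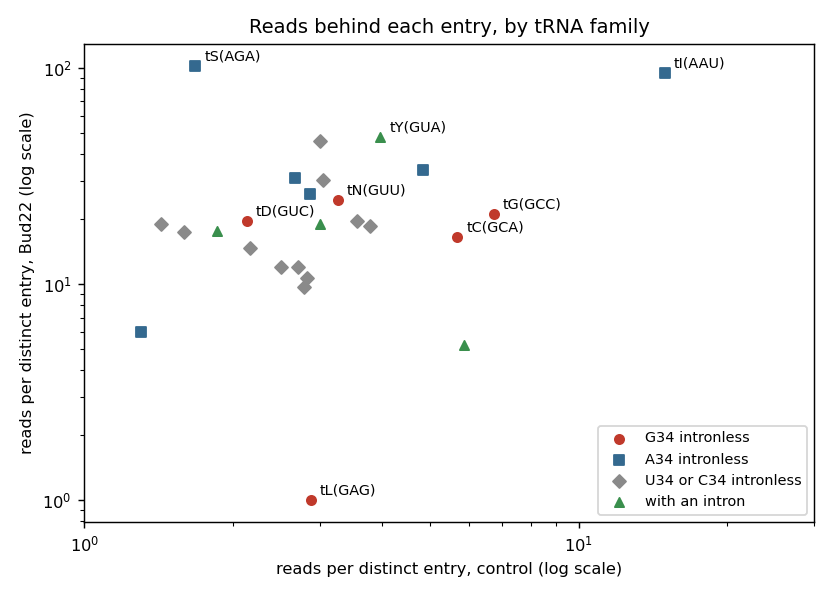
Reads per distinct entry of each tRNA family with Bud22 reads, control on the horizontal and Bud22 on the vertical axis (both logarithmic), with the sets marked by colour and shape. The 4 larger G34 families lie between 16.5 and 24.6 with Bud22, below tI(AAU) at 95.1 and tY(GUA) at 47.7, and tL(GAG) lies at 1.

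Set beside the other tRNA sets, the G34 families stood lower than the A34 families by reads, and their place beside the intron-containing families turned on 1 family, tY(GUA). The quotient of the G34 ratio over the ratio of another set does not depend on any library total, and its interval covers the counting error of both sets. Against the 7 A34 families it was 0.300 (0.272 to 0.329) by reads and 0.493 (0.336 to 0.714) by entries. Without tI(AAU) the read quotient was 0.277 (0.241 to 0.318), and the entry quotient of 0.699 (0.432 to 1.13) was not distinguishable from 1. Among A34 families tS(AGA) had the highest read ratio over the tRNA total, 2.28, on 3 entries with Bud22 and with an entry ratio of 0.341, and tP(AGG) had 0 reads against 15.

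Against the 10 families with an intron the quotient was 0.181 (0.159 to 0.206) for reads and 0.491 (0.315 to 0.764) for entries. The tyrosine family tY(GUA) held 2721 of the 2867 Bud22 reads of that set and 57 of its 68 entries, with a ratio of 6.83 by reads and 5.19 by entries. The other 9 intron families had 146 reads against 374 and 11 entries against 119. Against these 9, a comparison added after the values were seen, the direction turned: the quotient was 2.59 (2.09 to 3.22) by reads and 2.35 (1.15 to 5.18) by entries. Counting each family once, the median log2 ratio by reads was -5.16 for the intron families, of which 5 of 8 measured were called lower, and -3.15 for the G34 families. Only 4 of the 10 intron families had Bud22 reads. The values for tK(UUU), tL(UAG), tP(UGG) and tW(CCA), with 0 Bud22 reads, are set by the pseudocount of 0.5, and the median of -5.16 depends on it. By entries the medians were -2.06 and -1.67.

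Against the 18 intronless families with U34 or C34 the quotient was 0.924 (0.811 to 1.05) by reads and 1.35 (0.851 to 2.15) by entries, and both intervals include 1. With the counts of a family averaged over its copies the read quotient was 0.894 (0.776 to 1.03). With counts summed over copies it was 1.12, so the copy rule moved the value to the other side of 1. That sum counts a read once per copy, so its interval (1.07 to 1.18) is too narrow and does not set it apart from 1. In that set tT(CGU), named TRT2 in the files, had the highest read ratio, 1.57, and 4 measured families had no Bud22 read. Against all 33 families other than G34, tI(AAU) and tY(GUA) the quotient was 0.625 (0.561 to 0.697) by reads and 1.17 (0.787 to 1.73) by entries.

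A G at position 34 did not by itself go with one direction. The 3 G34 families with an intron gave 2721 reads against 139 for tY(GUA), the tyrosine tRNA, and 0 against 9 each for tF(GAA) and tS(GCU). Both tF(GAA) and tS(GCU) were below the minimum of 10 counts and give no direction. Among the 6 without an intron, those for amino acids with a 2-codon box (Asn, Asp, His and Cys) had 400 reads against 499 and 18 entries against 144 together. Against all tRNA that gave a read ratio of 0.280 (0.245 to 0.320) and an entry ratio of 0.398 (0.229 to 0.652). The glycine and leucine families, whose codons lie in 4-codon boxes, had 633 against 522 reads and 31 against 82 entries, with ratios of 0.423 (0.376 to 0.476) and 1.204 (0.770 to 1.84). Both groups are uneven inside, with tN(GUU) set apart from the rest of the first and tL(GAG) from tG(GCC).

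Families that read other codons of the same amino acids were mostly called lower by reads over the tRNA total, as were 66.7% of all 36 measured families. Among them tG(UCC) and tL(UAG) reached the minimum only through the control. For glycine, tG(UCC), with the genes SUF1, SUF4 and SUF6, had 0 reads against 41 and 0 entries against 20, and its ratio against all tRNA had an upper limit of 0.0328 by reads and 0.645 by entries. The third glycine family, tG(CCC), with SUF3 and SUF5, had 0 reads against 5 and was below the minimum. All glycine tRNA reads in the Bud22 library thus lay in tG(GCC). For leucine, tL(UAG) had 0 against 81 reads, tL(CAA) had 21 against 158 and tL(UAA) had 46 against 33, on 0, 4 and 1 entries with Bud22. By entries the ratios against all tRNA of tL(CAA), 0.472 (0.120 to 1.35), and tL(UAA), 0.290 (0.00673 to 1.99), gave no direction. Across all nuclear tRNA, 15 of 41 families had no read with Bud22 and 0 of 41 in the control.

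The mitochondrial tRNAs, which are transcribed in the organelle, offer a comparison at the same anticodon. Mitochondrial tRNA genes with a G34 anticodon that were seen numbered 6, among them tN(GUU)Q, tD(GUC)Q, tH(GUG)Q and tC(GCA)Q. Together they had 17 reads on 10 entries in the control and 0 reads with Bud22, as did all 10 mitochondrial tRNA genes seen (30 control reads). These counts are too low to set the nuclear and mitochondrial genes against each other.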

How the data were processed

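One library of each group, Bud22 and control, was analysed. The deposited files hold raw counts of sense and antisense reads for each annotated feature, written by pyReadCounters (Counters version 1.2.1) per the file headers. A further column, labelled "number of reads", never exceeded both strands summed (0 rows) and is defined in no source used here. It was taken from its values, not its label, as distinct entries and limited to the sense count. Alignment, trimming, duplicate handling, build and annotation: not given in the sources used here. No coordinates or sequences were used.

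The libraries held 317922 (Bud22) and 296925 (control) reads, 188065 and 97270 of them mapped. Sense reads over named features came to 215982 and 132895 (5920 and 37130 entries). These totals exceed the mapped reads, since a read is counted at each feature it overlaps. Ratios over named features carry this multiple counting, which need not be alike in the 2 libraries. Intergenic rows name no gene and were left out (15.8% and 13.7% of sense counts).

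Families were placed by anticodon, and genes named otherwise by known identity. Mitochondrial tRNAs and 1 tRNA without a determined anticodon stayed out of families. Shares have Clopper-Pearson, ratios conditional binomial and quotients of sets exact conditional odds-ratio intervals (95%, Python 3.11.15, scipy 1.17.1). Log2 ratios used a pseudocount of 0.5, and the floor for a count of 0 was 3. With 1 library per group no test was run. Functions were tested on simulated data. Members and lists were chosen with earlier results of these data known. Named were all 6 families, copies over 10% from their family's top copy (as ranges where alike), the SUF genes of the set, and families at the ends of the other sets. Alternatives covered the count column, strands, totals, copy choice, thresholds and members.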

Additional observations from a re-analysis of the deposited data

How the results depend on the processing

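The ratio of the set's share of tRNA reads, 0.353, moved with the total used. It was 0.690 by distinct entries, 0.623 over named features, 0.991 over named features with 1 copy per family (0.908 to 1.08, which includes 1), 0.393 without rRNA, 0.523 over mapped reads, 0.732 without tI(AAU) and tY(GUA) in the total, and 0.311 with means over copies. Leaving out families gave 0.268 without tG(GCC), 0.284 without tN(GUU) and 0.441 without tC(GCA). It turned to 1.12 and 1.36 under pairs of choices added after seeing the data, namely entries with the total without tI(AAU) and tY(GUA), and entries with the total of named features. The cause was not tested.

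Quotients against other sets moved by entries, to 0.493 (A34), 1.35 (U34 or C34) and 0.491 (intron). They also moved with sums over copies to 1.12 (U34 or C34), and with means over copies to 0.238 (A34). In comparisons added after seeing the data, leaving tY(GUA) out of the intron families turned the quotient to 2.59 by reads and 2.35 by entries, and leaving tI(AAU) out of the A34 families gave 0.699 by entries. Under the 4 settings tried, reads per entry lay between 20.8 and 21.1 with Bud22 and between 4.15 and 4.52 in the control. This is a weak check. Adding antisense reads could not move these values, since no gene of the set has any, and the most counted copy over both libraries gave identical values. Sums and means over copies only weight anew copies that share most of their reads.

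By entries 3 families were called lower in place of 5, and 17 genes higher and 0 lower in place of 0 and 28. Over named features with 1 copy per family, 1 family was called higher and 4 lower, where 10 and 16 of all 36 measured families were. In the added pairs, entries without tI(AAU) and tY(GUA) gave 1 family higher and 1 lower, with 11 genes higher and 16 lower. Of all 29 families measured by entries, 5 were higher and 3 lower under that pair. Gene counts are left out under that pair and with 1 copy per family, as the share over all features was not computed. Entries over named features gave 2 families higher and 0 lower, with 17 genes higher and 0 lower. Beside these, 20.7% of 29 families were called higher and 3.45% lower, and 17.5% and 12.6% of 342 features. Other thresholds kept the set's counts of calls by reads within 1.5 times.

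The tG(GCC) ratio of 0.442 turned to 1.29 by entries, 1.24 over named features with 1 copy per family, and 2.09 and 2.54 under the added pairs. No paired analysis was possible because each group has 1 library. Depth is limited by 49 entries for the set with Bud22, of which the aspartate, cysteine, histidine and leucine families hold 7.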
